A study of Homo sapiens with 4 samples.

Results

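Nascent transcription of ATOH8 and of 9 genes of the BMP, SMAD and ID families was examined in HCT116 cells with and without degradation of KAP1, the transcriptional regulator encoded by TRIM28. The 10 genes are ATOH8, ID1, ID2, ID3, ID4, SMAD6, SMAD7, SMAD9, BMP4 and BAMBI. They were selected by symbol from the 19901 protein-coding genes in the count table, with the change between the conditions already known, because ATOH8 is among the genes with the largest decrease upon KAP1 degradation. Every change of these 10 genes between the conditions is therefore a description and carries no test. Of the 10 genes, 9 had at least 50 counts in all 4 libraries, and ID4 did not.

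HCT116 is a human colon carcinoma line. In the KAP1dTAG derivative, clone D5, which is 1 single-cell clone, endogenous KAP1 carries a degron tag that the ligand dTAG-13 links to an E3 ubiquitin ligase, so that KAP1 is sent to the proteasome. DMSO-treated and dTAG-treated cells both carried this tag, were kept in medium with serum, and were treated for 8 h with DMSO or 500 nM dTAG-13. During the last step they received 500 μM 4-thiouridine (4sU) for 10 min, which marks newly made RNA for purification (TT-Seq). Each condition has 2 libraries (n = 2), described as biological replicates. Such bulk measurements do not tell fewer transcribing cells from less nascent RNA per cell.

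BMPs are secreted ligands of the TGF-β superfamily. They bring together type I and type II receptor kinases, which phosphorylate SMAD1, SMAD5 and SMAD9, and these enter the nucleus with SMAD4 and bind target genes. ID1, ID2, ID3 and ID4 are classical targets. Their products are helix-loop-helix proteins without a DNA-binding region that pair with E proteins and keep them from DNA. SMAD6, SMAD7 and BAMBI are also targets and act as feedback inhibitors of the pathway. ATOH8 is a bHLH transcription factor of the atonal family that BMP and SMAD signaling activates in endothelial and liver cells. In the intestine, BMP ligands oppose the stem cell compartment and favor differentiation.

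Promoter sequences are shown for ATOH8, the gene with the largest change, and for ID3, BAMBI and SMAD7, one target and a pair of inhibitors that were lower with dTAG. They were taken from RefSeq (GRCh38.p14), where all 10 genes were matched with 14 promoter windows, and each is the stretch of 250 bases before a gene start, written 5′ to 3′ on the strand of the gene. In ATOH8 (chr2:85753741-85753990, plus strand) capitals mark the E box, CANNTG, to which bHLH factors bind. In ID3 (chr1:23559502-23559751, minus strand), BAMBI (chr10:28677271-28677520, plus strand) and SMAD7 (chr18:48950966-48951215, minus strand, the first of its 3 starts) capitals mark the SMAD box CAGAC, or GTCTG where it lies on the other strand, and the GC-rich motif GGCGCC.
ATOH8: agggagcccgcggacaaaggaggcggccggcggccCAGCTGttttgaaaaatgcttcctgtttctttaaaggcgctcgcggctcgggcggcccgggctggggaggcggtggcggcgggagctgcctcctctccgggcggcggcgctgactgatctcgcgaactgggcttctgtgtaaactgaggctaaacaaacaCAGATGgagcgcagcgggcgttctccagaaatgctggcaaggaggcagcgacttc
ID3: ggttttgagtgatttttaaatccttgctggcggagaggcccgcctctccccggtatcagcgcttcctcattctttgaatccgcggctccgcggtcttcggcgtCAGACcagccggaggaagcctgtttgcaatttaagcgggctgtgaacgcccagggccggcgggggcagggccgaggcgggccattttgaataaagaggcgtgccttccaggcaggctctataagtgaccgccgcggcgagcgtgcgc
BAMBI: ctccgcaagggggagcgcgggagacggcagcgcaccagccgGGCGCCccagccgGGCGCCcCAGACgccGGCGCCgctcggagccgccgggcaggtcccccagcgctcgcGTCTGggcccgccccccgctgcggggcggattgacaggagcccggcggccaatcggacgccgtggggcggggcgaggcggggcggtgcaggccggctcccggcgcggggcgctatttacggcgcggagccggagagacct
SMAD7: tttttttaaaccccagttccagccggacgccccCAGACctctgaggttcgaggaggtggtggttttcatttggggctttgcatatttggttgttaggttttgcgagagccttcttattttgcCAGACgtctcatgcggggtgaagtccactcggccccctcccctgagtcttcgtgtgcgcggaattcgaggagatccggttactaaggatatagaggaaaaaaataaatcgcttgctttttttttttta
Positions are counted from the RefSeq gene start, the base before it being -1. The printed stretches of ATOH8 and ID3 lie inside the gene intervals over which reads were counted, and that of BAMBI lies partly inside. The window of ATOH8 held E boxes at -215 and -55, a further one at -1 that runs into the transcribed part, and no match to CAGAC or GGCGCC. ID3 held a CAGAC match at -147. BAMBI held CAGAC matches at -189 and -140 and GGCGCC matches at -209, -196 and -181, and SMAD7 held CAGAC matches at -217 and -128. These matches are letters in a window of 300 bases (250 before and 50 after the start) and do not show binding. With both strands searched, CAGAC was found in at least 1 window of 6 of the 10 genes, against 45.3% of all 35116 RefSeq promoter windows of that length. GGCGCC was found in 2 of the 10 genes, against 19.2% of windows, and CANNTG in 7 of the 10, against 68.7%. Genes with several starts had more than 1 chance of a match, so these shares are not on the same basis.

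The authors deposited raw counts over the whole length of each gene, and the counts on genes summed to between 93105627 and 102314741 per library. Values below are CPM, counts scaled to a common library size after correction by the TMM method of edgeR. A gene was called where the adjusted p of edgeR's quasi-likelihood test was under 0.05 among the 12612 tested genes, and 7.10% of these were called, 3.44% higher and 3.66% lower with dTAG. The RNA of TRIM28 had a log2 fold change of -0.37 (SE 0.092) and was called lower. Once trends on GC content and gene length were removed from each library, it was at -0.10 and not called. It does not check the labels, since the ligand acts on the protein. The libraries looked epithelial, with 6 of 8 epithelial and colon markers tested, none called by TMM scaling, and a summed level of 1137 to 1171 CPM with DMSO and 1063 to 1162 CPM with dTAG. With the trends removed, 2 of the 6 were called higher by edgeR, CDH1 (0.23, adjusted p = 0.0020) and KRT18 (0.19, adjusted p = 0.031). In that setting 1343 of the 12612 tested genes were called higher. The colon markers CDX1 and VIL1 were below the count minimum. The 3 leukocyte markers summed to 0.033 to 0.13 CPM and the 2 endothelial markers to 0.359 to 0.485 CPM, and none of these 5 passed the minimum. Of the 3 fibroblast markers, with 5.10 to 5.89 CPM in all, COL1A1 was tested and not called, and COL1A2 was at 0 counts in all 4 libraries.

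With DMSO, the level per length of these genes spanned a wide range. ID1 stood first with 322 CPM per kilobase, above 99.8% of tested genes. BMP4 followed with 32.4 CPM per kilobase and ID3 with 29.2, and their DMSO libraries overlapped, at 29.2 to 35.5 for BMP4 and 25.9 to 32.5 for ID3. BAMBI was at 10.6, ID2 at 7.66, SMAD7 at 3.35 and SMAD6 at 2.10 CPM per kilobase, and neighbors in this order did not overlap. All 7 lay above the median of the tested genes, 1.06 CPM per kilobase. ATOH8 (0.114), SMAD9 (0.108) and ID4 (0.0868 CPM per kilobase) were transcribed at a low level, and their DMSO libraries overlapped. The ligand BMP4, the ID genes other than ID4, and the inhibitors were thus the highly transcribed genes here, and ATOH8 was at percentile 11.8 of the tested genes.

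**Figure D1:**
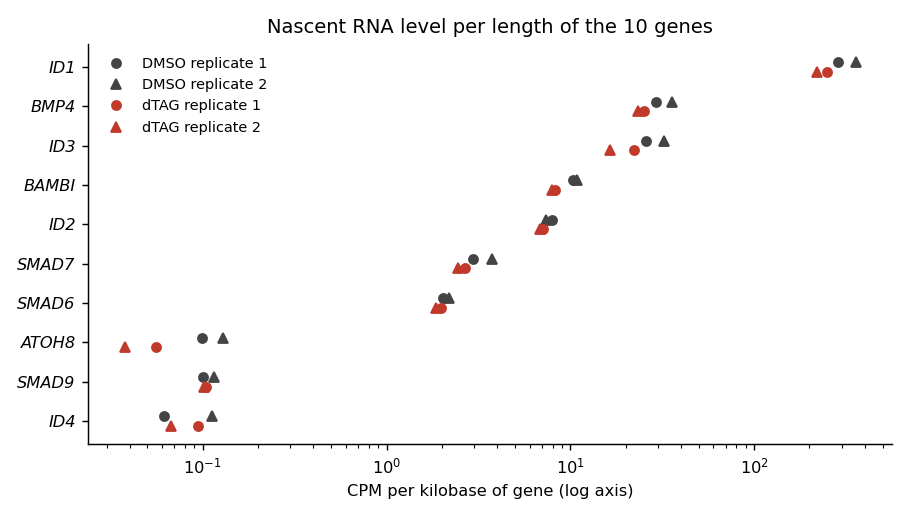
Level of nascent RNA of the 10 genes in CPM per kilobase of gene (log axis), with DMSO in one color and dTAG in the other and the replicate given by the symbol. ID1 stands apart at 322 CPM per kilobase with DMSO, and ATOH8, SMAD9 and ID4 lie together near 0.1.

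ATOH8 (ENSG00000168874.12) lies on chromosome 2 of hg38 from 85751343 to 85788066 on the plus strand, and the RefSeq start used for the promoter above, 85753991, is inside this interval. It had 362 and 474 counts with DMSO and 205 and 125 with dTAG. Scaled, these were 3.66 and 4.75 CPM with DMSO and 2.05 and 1.39 CPM with dTAG. Both dTAG libraries were therefore below both DMSO libraries, and the difference between the conditions was larger than the spread within either one. The means were 4.20 ± 0.775 CPM (SD, n = 2) in DMSO-treated and 1.72 ± 0.468 CPM (SD, n = 2) in dTAG-treated cells. On the log2 scale this was a fold change of -1.29 (SE 0.23), a 2.44-fold lower level or a change of -59.0%. This ranked ATOH8 4th from the lowest among the fold changes of all 12612 tested genes, and 4th of the 461 called falls.

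With the trends on GC content and length removed, the 4 libraries of ATOH8 read 3.72 and 4.19 CPM with DMSO and 2.11 and 1.499 CPM with dTAG, the log2 fold change was -1.13 (SE 0.19) and its rank was again 4. Without dTAG replicate 2 it was -1.04 and no longer called, and in that setting 69 genes were called in all. ATOH8 holds the microRNA gene MIR6071 on the opposite strand over 78 bases and overlaps no other gene. The nearest tested genes on either side, USP39 and ST3GAL5, had log2 fold changes of -0.05 and -0.04 and were not called.

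**Figure D2:**
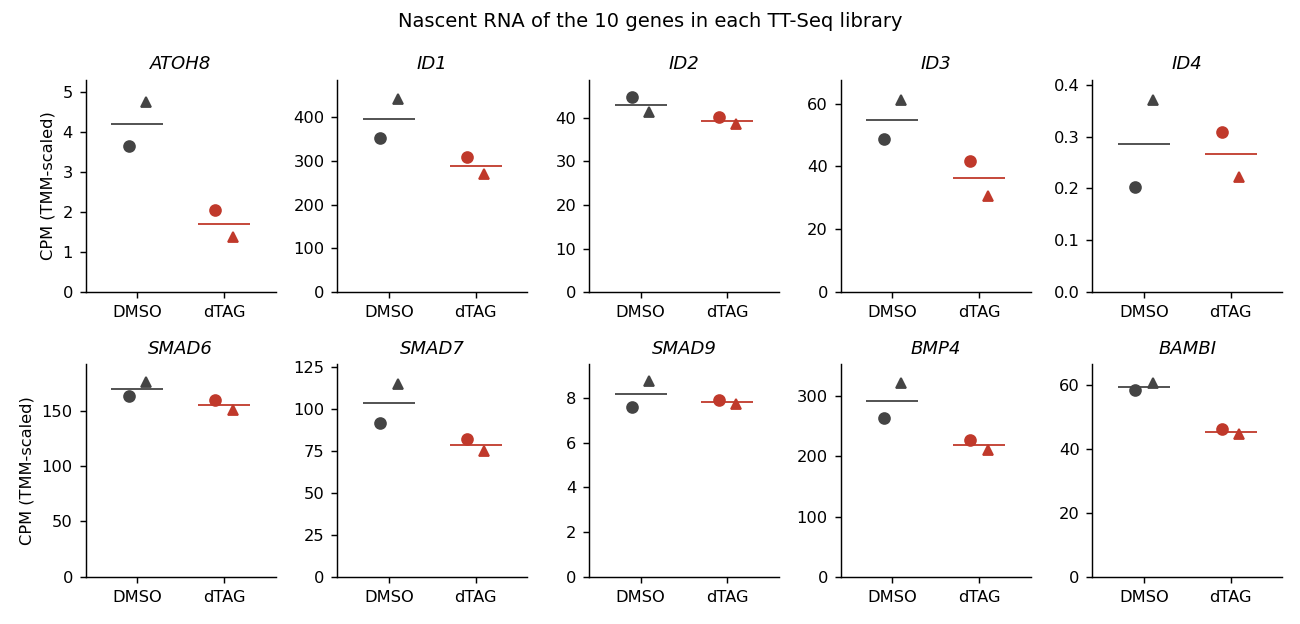
CPM of each of the 10 genes in every library, with the mean of each condition as a line and each panel starting at 0. By TMM scaling the dTAG points lie below the DMSO points in 8 of the 9 tested genes, whereas those of SMAD9 and of the untested ID4 overlap.

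Of the 9 tested genes, 6 were called lower with dTAG (ATOH8, ID1, ID3, SMAD7, BMP4 and BAMBI), 0 were called higher and 3 were not called (ID2, SMAD6 and SMAD9). Among all tested genes, 3.66% were called lower. Both dTAG libraries were below both DMSO libraries for 8 of the 9, as for 30.7% of all tested genes. Because the genes were selected with this contrast known, nothing is read from these counts. The median log2 fold change of the 9 was -0.39, beside -0.015 over all tested genes, whose 5th and 95th percentiles were -0.45 and 0.30. With library sizes set to the totals of the ERCC spike-in RNAs, the median of all genes moved to 0.63 and ATOH8 was the only one of the 9 below 0. Relative to that median all 9 lay below, but that scaling shifts all genes nearly alike and so could hardly change this order. The SEs in that setting ran from 0.48 (SMAD9) to 0.64 (ID1), and nothing is read from it.

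Among the ID genes, ID3 changed most. ID3 (ENSG00000117318.8, chromosome 1 from 23557917 to 23559794, minus strand) read 48.7 and 61.1 CPM with DMSO and 41.8 and 30.7 CPM with dTAG. The dTAG libraries lay below the DMSO libraries, but the spread within each condition was wide, with means of 54.9 ± 8.72 and 36.3 ± 7.87 CPM (SD, n = 2). The log2 fold change was -0.60 (SE 0.12), or 1.51-fold lower. Without dTAG replicate 2 it was -0.39 and the call was lost, and with the ERCC factor as a covariate it was -0.26 and not called.

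ID1 (ENSG00000125968.8, chromosome 20 from 31605282 to 31606515, plus strand), the most highly transcribed of the 10 and a short gene of 1.23 kb, read 352 and 442 CPM with DMSO and 308 and 270 CPM with dTAG. The groups did not overlap, although the DMSO libraries differed from each other by more than DMSO replicate 1 differed from either dTAG library. Its log2 fold change was -0.46 (SE 0.11), from 397 ± 63.0 to 289 ± 27.0 CPM (SD, n = 2). ID1 has the highest GC content of the 10 genes, 58.6%. With the trends removed its log2 fold change was -0.15 (SE 0.050), and it missed the call by a narrow margin. With replicate number also added to that fit it was called lower, as were 1129 of the 12612 tested genes. What part GC content has in its change was not tested.

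ID2 (ENSG00000115738.9, chromosome 2 from 8678844 to 8684453, plus strand) read 44.7 and 41.2 CPM with DMSO and 40.1 and 38.5 CPM with dTAG. The dTAG values were lower by a narrow margin, the log2 fold change was -0.13 (SE 0.093), and ID2 was not called. Its interval shares 3021 bases with the antisense gene ID2-AS1, and how the counting treated strand is not stated, so that reads of the pair cannot be told apart. ID4 (ENSG00000172201.11, chromosome 6 from 19837385 to 19840684, plus strand) had 20 and 37 counts with DMSO and 31 and 20 with dTAG. Its libraries were intermingled, no difference was detectable at this depth, and it shares 1696 bases with LNC-LBCS on the opposite strand. The 4 ID genes were thus unequal, with ID1 and ID3 called and ID2 not called by TMM scaling, and the difference between them was not tested.

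The ligand BMP4 (ENSG00000125378.15, chromosome 14 from 53949735 to 53958761, minus strand) read 264 and 321 CPM with DMSO and 227 and 211 CPM with dTAG. Its dTAG libraries were below its DMSO libraries, and the means were 292 ± 40.2 and 219 ± 11.3 CPM (SD, n = 2). The log2 fold change was -0.42 (SE 0.10), a change of -25.2%. BMP4 shares 4091 of its bases with a long noncoding RNA gene on the opposite strand, ENSG00000287156, from which it cannot be separated without strand.

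Among the inhibitors, BAMBI, a pseudoreceptor without a kinase domain, had the tightest replicates. BAMBI (ENSG00000095739.10, chromosome 10 from 28677341 to 28682939, plus strand) read 58.2 and 60.6 CPM with DMSO and 46.1 and 44.6 CPM with dTAG. The gap between the conditions was several times the spread within them, with a log2 fold change of -0.39 (SE 0.087) from 59.4 ± 1.69 to 45.4 ± 1.07 CPM (SD, n = 2). Over the settings that leave out a library, it stayed between -0.42 and -0.36. Its call was lost when either dTAG library was left out and when replicate number was added to the fit. With the trends removed the log2 fold change of BAMBI was -0.30 (SE 0.050). BAMBI overlaps no other gene.

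SMAD7 (ENSG00000101665.8, chromosome 18 from 48919852 to 48950711, minus strand), which recruits ubiquitin ligases to receptors and blocks both branches of the pathway, read 91.6 and 115 CPM with DMSO and 82.1 and 75.3 CPM with dTAG. The dTAG libraries were the lower ones, and the log2 fold change was -0.39 (SE 0.098), from 103 ± 16.8 to 78.7 ± 4.83 CPM (SD, n = 2). With the ERCC factor as a covariate it was -0.14 and not called.

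SMAD6 (ENSG00000137834.14, chromosome 15 from 66702227 to 66782848, plus strand), an inhibitor mainly of the BMP branch, read 163 and 176 CPM with DMSO and 159 and 150 CPM with dTAG. DMSO replicate 1 and dTAG replicate 1 were close to each other, the log2 fold change was -0.13 (SE 0.087), and SMAD6 was not called. Without DMSO replicate 1, which leaves 1 DMSO library, its log2 fold change was -0.19. SMAD9 (ENSG00000120693.13, chromosome 13 from 36844830 to 36920765, minus strand), a receptor-activated SMAD of the BMP branch, read 7.59 and 8.74 CPM with DMSO and 7.93 and 7.71 CPM with dTAG. Both dTAG libraries fell between the DMSO libraries, and the log2 fold change was -0.06 (SE 0.15). The 3 inhibitors and the activating SMAD thus differed in their values, with BAMBI and SMAD7 at -0.39, SMAD6 at -0.13 and SMAD9 at -0.06, and these differences were not tested.

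The replicates shared a pattern across these genes. DMSO replicate 2 was the highest library for 8 of the 9 tested genes, all but ID2, and dTAG replicate 2 was the lowest for 8, all but SMAD9. How many of all tested genes had this order was not counted, so it is not read as particular to these genes. GC content moved with the libraries in the same way. Across the 12612 tested genes, which share the same 4 libraries, Spearman's rank correlation between GC content and the ratio of replicate 2 to replicate 1 was 0.75 with DMSO and -0.43 with dTAG. The rank correlation of the log2 fold change was -0.56 with GC content and 0.42 with gene length. Of the 9 genes, 8 had a GC content above the median of tested genes (44.9%), SMAD9 with 41.1% being the exception, and their own median was 52.1%.

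**Figure D3:**
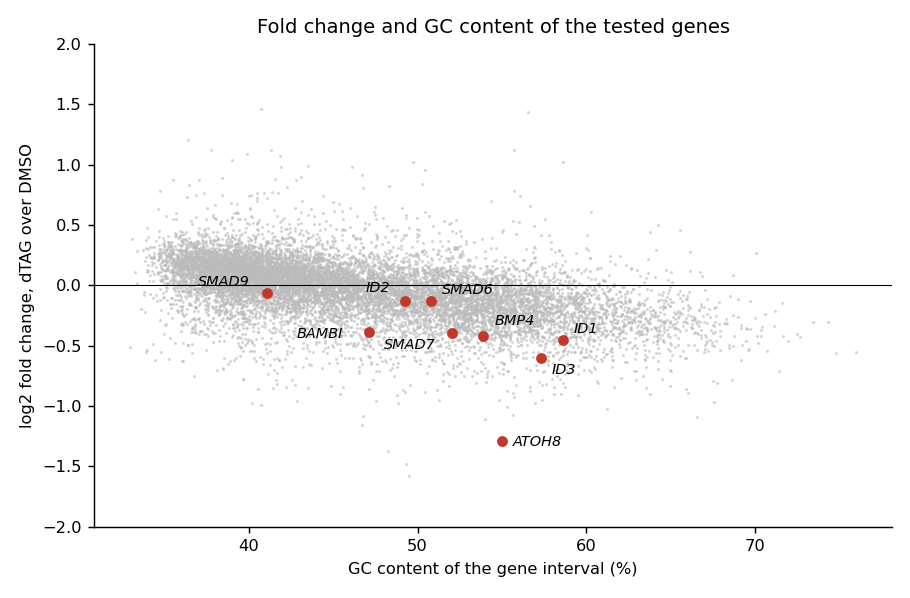
Log2 fold change of dTAG over DMSO against the GC content of the gene interval in percent, with all 12612 tested genes in gray and the 9 tested genes in red, by TMM scaling. The gray cloud slopes down with GC content (rank correlation -0.56), ID2, SMAD6 and SMAD9 lie inside it, and ATOH8 lies below it at -1.29.

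Once the trends on GC content and then on gene length were removed from each library, the rank correlation with GC content was 0.086. ATOH8, ID3, SMAD7, BMP4 and BAMBI were then still called lower, 5 of the 6, where 7.46% of all tested genes were called lower. The log2 fold changes were -0.34 (SE 0.086) for ID3, -0.27 (SE 0.054) for SMAD7 and -0.22 (SE 0.041) for BMP4. The median over the 9 genes was -0.22. Both dTAG libraries were below both DMSO libraries for 7 of the 9, the ones that overlapped being ID2 and SMAD9. The share of all tested genes with this order was not counted with the trends removed, so nothing is read from that number. By TMM scaling and edgeR, the libraries without which calls were lost were the dTAG libraries. All calls of the 6 genes were lost without dTAG replicate 2. Without dTAG replicate 1, those of ATOH8 and ID3 remained and the others were lost. When either DMSO library was left out, the calls remained. Genes called in all numbered 69, 138, 5491 and 1499 without dTAG replicate 2, dTAG replicate 1, DMSO replicate 1 and DMSO replicate 2. With the trends removed as well, ID1 was not called without DMSO replicate 2 or without dTAG replicate 2. ID3 was not called without dTAG replicate 2 in that setting.

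**Figure D4:**
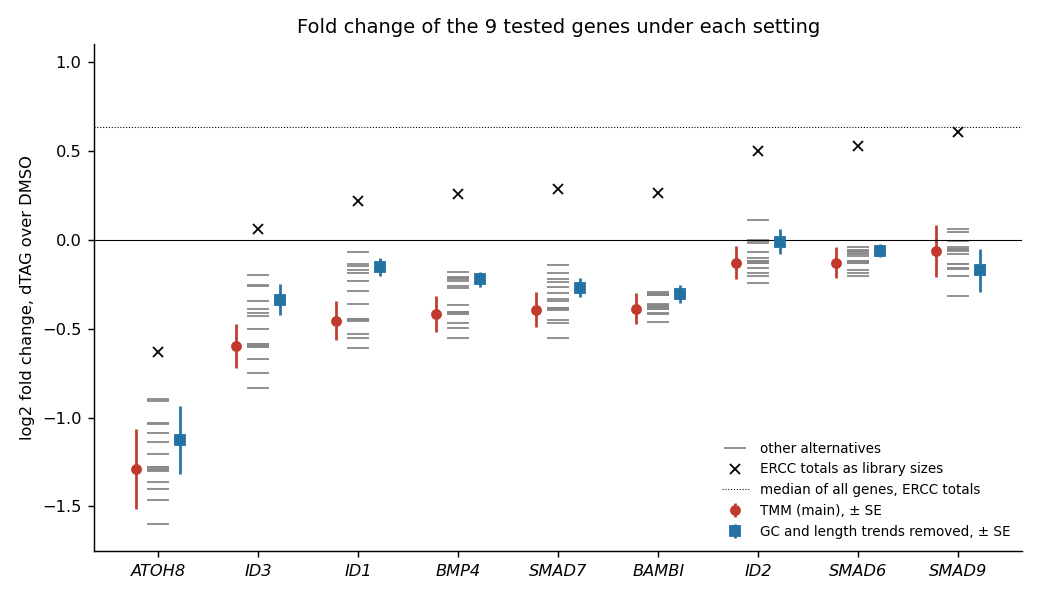
Log2 fold change of dTAG over DMSO for the 9 tested genes by TMM scaling (with SE), with the trends on GC content and length removed (with SE), with ERCC totals as library sizes, and under the other alternatives. ATOH8 was below 0 under all 20 alternatives, whereas the other 8 genes were above 0 with ERCC totals, where the median of all genes was 0.63 (dotted line).

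Similarity to ATOH8 was measured as the distance over the 4 libraries between log2 CPM values centered on the mean of each gene. Among tested genes outside the pathway lists, CDKN1C (0.324), AQP3 (0.333), KCNN3 (0.356), GPR15 (0.376) and DHRS2 (0.410) had the smallest distances. Their log2 fold changes were -0.97, -1.07, -0.97, -1.08 and -1.58. CDKN1C encodes a cyclin-dependent kinase inhibitor, AQP3 a water and glycerol channel, KCNN3 a calcium-activated potassium channel, GPR15 a chemoattractant receptor and DHRS2 a dehydrogenase. Among the 9 genes, ID3 was nearest to ATOH8 at a distance of 0.707, followed by ID1 at 0.897, and SMAD9 was farthest at 1.31. A distance over 4 libraries with 1 contrast mostly restates the size of that contrast.

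The genes that flank the 10 were also read out, by a rule made after their values were seen, the nearest tested gene on each side. Of these 20 genes, 0 were called lower and 1 was called higher by edgeR's quasi-likelihood test, BCL2L1, an inhibitor of apoptosis 57.9 kb from ID1 with a log2 fold change of 0.49 (SE 0.10, adjusted p = 0.0071). Among all tested genes 3.66% were called lower and 3.44% higher. Also 0 of the 20 were lower at an unadjusted p under 0.05 or called lower by DESeq2. How many were higher at these looser thresholds is not given here. SMAD3, 281 kb from SMAD6, is one of the 20 genes.

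The wider pathway was followed with 105 other genes in lists ordered by role. These lists were chosen with earlier results of these data known, so their counts and adjusted p-values are descriptions. Of these, 57 were tested and 48 were under the count minimum. Among the 57 tested genes 2 were called higher and 7 lower, together 15.8%, beside 7.10% of all tested genes, and their median log2 fold change was -0.037, with 30 below 0 and 27 above. The wider pathway was therefore divided in direction by TMM scaling. With ERCC totals 55 of the 57 were above 0, where the median of all genes was 0.63. With the trends removed, 5 were called higher and 10 lower, where 1343 of the 12612 tested genes were called higher and 941 lower.

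Among BMP-type ligands, 9 of 21 were tested, 2 of them were called lower and 0 higher, and the median log2 fold change was -0.26. GDF5, a ligand of joint development, read 11.1 and 14.4 CPM with DMSO and 8.20 and 7.40 CPM with dTAG. The groups did not overlap, and GDF5 fell by 0.70 on the log2 scale (SE 0.15, adjusted p = 0.0068, edgeR's quasi-likelihood test, Benjamini-Hochberg method over all tested genes, as for the other pathway genes). It shares sequence with GDF5-AS1 on the opposite strand. GDF15, a stress-responsive divergent member of the superfamily, fell by 0.36 (edgeR, adjusted p = 0.022). BMP2 was at 0 counts in all 4 libraries, so that BMP4 was read here without that close relative. Of the 11 TGF-β, activin and nodal ligands, 4 were tested and none was called by edgeR or DESeq2 or had an unadjusted p under 0.05, the largest change being that of INHBC, an inhibin β subunit (-0.20, edgeR, adjusted p = 0.71).

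Of the 16 receptors and co-receptors, 13 were tested and 1 was called, the BMP co-receptor RGMA (-0.39, SE 0.12, edgeR, adjusted p = 0.049). That call was lost with a minimum of 10 counts or with DESeq2 size factors. With the trends removed, 4 were called lower by edgeR, namely RGMA (-0.28), the type II receptors BMPR2 (-0.29) and ACVR2A (-0.30), and the co-receptor TGFBR3 (-0.24). In that setting 7.46% of all tested genes were called lower. The 5 other signal-carrying SMADs, SMAD1 to SMAD5, were all tested, were all above 0 by TMM scaling with a median of 0.20, and none was called by edgeR. At an unadjusted p under 0.05 there were 3 of them, and DESeq2 called SMAD3. With the ERCC factor as a covariate 3 of these 5 were below 0, and with the trends removed 1 was. SMAD3, which carries TGF-β and activin signals, had the largest value (0.27, edgeR, adjusted p = 0.082), and it was called with the trends removed (0.29, edgeR, adjusted p = 2.9e-04).

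Of 15 extracellular antagonists, 6 were tested and none was called by edgeR or DESeq2, with 3 at an unadjusted p under 0.05. Their median was -0.35, and DAND5 had the largest change (-0.66, edgeR, adjusted p = 0.13). Noggin (NOG) had between 1 and 14 counts. Of 12 intracellular regulators, 11 were tested, with a median of 0.11. SMURF2, a ubiquitin ligase that acts on SMADs and receptors, rose by 0.39 (SE 0.11, edgeR, adjusted p = 0.031) and TOB1, an antiproliferative protein that binds SMADs, fell by 0.32 (edgeR, adjusted p = 0.026). SMURF2 shares sequence with CEP95 and TOB1 with TOB1-AS1, each on the opposite strand.

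The E proteins, the partners of ID proteins, were not called by edgeR or DESeq2 and had no unadjusted p under 0.05, and 2 of 3 were tested, TCF12 having the larger value (0.17, edgeR, adjusted p = 0.35). Of 15 other tissue bHLH factors, 2 were tested. HES1, a repressor downstream of Notch, read 15.8 and 16.3 CPM with DMSO and 11.4 and 10.3 CPM with dTAG, and fell by 0.56 (SE 0.13, edgeR, adjusted p = 0.011). HEYL was not called (-0.35). ATOH1, the atonal factor of secretory cells of the gut, had 14 and 4 counts with DMSO and 0 and 5 with dTAG, under the minimum, so that ATOH8 was the atonal gene that could be compared.

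Among 7 other SMAD target genes, 5 were tested and 2 were called lower. The homeobox genes MSX2 (-0.47, SE 0.12, edgeR, adjusted p = 0.025) and MSX1 (-0.40, SE 0.11, edgeR, adjusted p = 0.028) were called lower, and MSX1 was at -0.16 and not called with the trends removed. Without dTAG replicate 2 neither was called, at -0.29 for MSX2 and -0.25 for MSX1, and MSX1 (-0.57) was not called without dTAG replicate 1 either. Without dTAG replicate 2, 0 of the 57 pathway genes were called by edgeR, with 4 at an unadjusted p under 0.05, and 2 were called without dTAG replicate 1. HES1, MSX1, MSX2, RGMA, GDF15 and TOB1 were above 0 with ERCC totals, where the median of all genes was 0.63. They lay below that median, but nothing is read from this, since that scaling shifts all genes nearly alike.

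**Figure D5:**
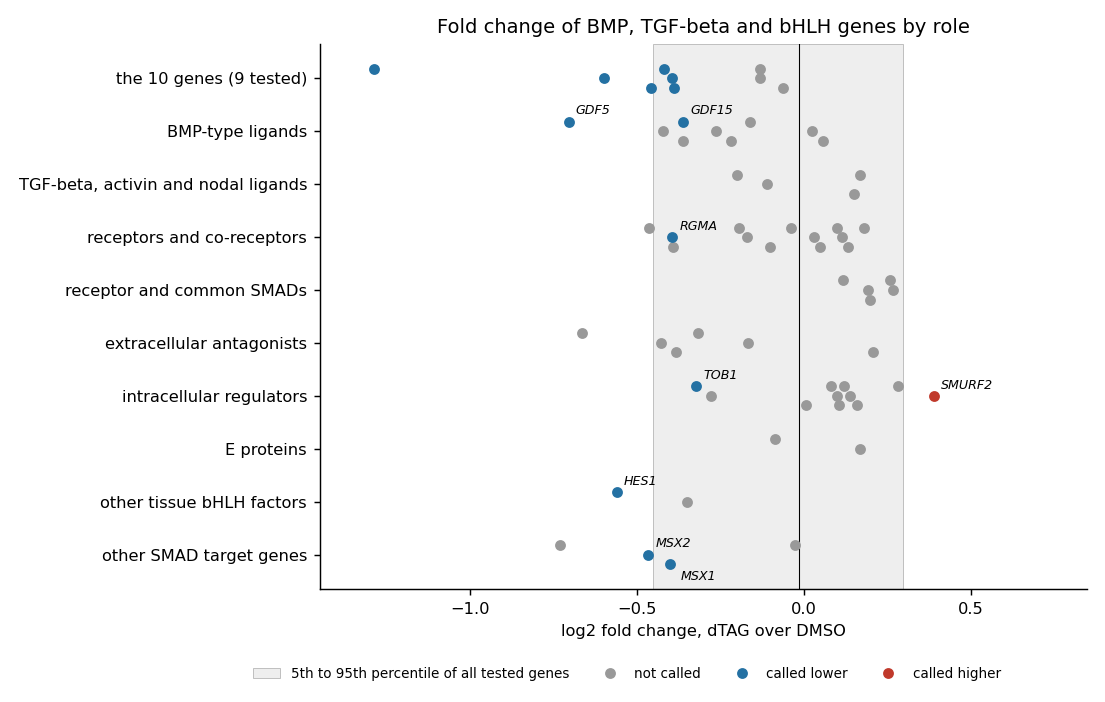
Log2 fold change of dTAG over DMSO by TMM scaling, 1 point per tested gene except 1 that is not reported here, in rows by role, with called genes in color and the range between the 5th and 95th percentile of all tested genes (-0.45 to 0.30) shaded. The 5 receptor-activated and common SMADs all lie above 0 by this scaling (2 of 5 with the ERCC factor), and the 9 tested genes of the upper row lie below it, ATOH8 at -1.29 (with ERCC totals ATOH8 alone does).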

How the data were processed

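TT-Seq counts were analyzed for 4 libraries, 2 with DMSO and 2 with dTAG, grouped by GEO's labels. Per the submitters' processing notes and the methods, the authors checked and trimmed 50-bp read pairs (FastQC 0.11.8, Trim Galore 0.6.4), used STAR for mapping to hg38, and assigned pairs to whole protein-coding genes and ERCC RNAs with featureCounts of Subread 1.6.3. They deposited raw counts, without normalization. How strand was treated is not given in the sources used here. ERCC RNAs were added to the purified nascent RNA and took 0.0103% to 0.0265% of all counts, and for normalization to them and for differential expression the study names EDASeq, RUVSeq and edgeR (3.40.1).

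The genes that reached 50 counts in every library (12612, holding 99.9% of gene counts) were compared in R 4.3.3 with edgeR 4.0.16 by TMM scaling and the two-sided quasi-likelihood test with Benjamini-Hochberg adjustment, called under 0.05. SE is the log2 fold change divided by the root of F. Each SD is over 2 libraries, and p-values measure only the spread between these libraries. CPM were computed with TMM library sizes, and CPM per kilobase with the length of the gene in the count table. Symbols came from GENCODE 44 (19784 of 19901 genes), GC content from hg38. The alternatives were DESeq2 1.42.0, other scalings (DESeq2 size factors, upper quartile, ERCC totals, 1 factor from 14 ERCC RNAs), the likelihood ratio test, other count minimums, loess trends of each library on GC content and then length removed, a replicate block and leaving out each library. The fits were tested on simulated data.

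The 10 genes and the pathway lists were chosen with earlier results of these data known. Pathway genes are named where called (1 is counted but not reported here), or as the largest change of a role without a call. The genes most like ATOH8 are the 5 nearest. BMPR2, ACVR2A, TGFBR3, HEYL, NOG, BMP2 and ATOH1 were named after their values were seen. The crossed block and the removal of trends with a library left out were added after the data were seen.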

Additional observations from a re-analysis of the deposited data

How the results depend on the processing

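Of all tested genes 895 were called (434 higher, 461 lower) and of the 57 other pathway genes 9. These counts were 1593 and 14 with the likelihood ratio test, 2284 and 15 with the trends removed, and 0 and 0 with ERCC totals (edgeR, 229 genes at an unadjusted p under 0.05). Without a count filter 1417 genes were called. The split was 255 higher and 869 lower with upper-quartile scaling and 452 and 745 with the ERCC factor. Leaving out 1 library gave 69 to 5491 genes and 0 to 35 pathway genes, and with the trends also removed 2745, 2167, 1844 and 1093 genes and 19, 18, 16 and 11 pathway genes without DMSO replicates 1 and 2 and dTAG replicates 1 and 2. A replicate block gave 340 and 4, and with the trends removed 2636 and 18. Same-numbered libraries tended to deviate in opposite directions (r = -0.24 across genes). Whether the number pairs the libraries was not tested, and this value cannot settle it, since the replicate ratios also followed GC content. With the numbers crossed 3190 and 19 genes were called.

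ATOH8 stayed below 0 in all 20 alternatives and lost its call with ERCC totals (-0.63) and without dTAG replicate 2 (leaving out a library, -1.60 to -1.04). With ERCC totals the log2 fold changes were 0.22 for ID1, 0.50 for ID2, 0.059 for ID3, 0.52 for SMAD6, 0.29 for SMAD7, 0.61 for SMAD9, 0.25 for BMP4, 0.26 for BAMBI, 0.080 for HES1, 0.16 for MSX2, 0.24 for MSX1, 0.26 for RGMA, 0.30 for GDF15, 0.33 for TOB1, 0.53 for INHBC, 0.039 for DAND5 and 0.28 for TRIM28. That scaling moved the median of all genes to 0.63, which shifts each of them. With the ERCC factor they were -0.26 for ID3, -0.14 for SMAD7, 0.061 for SMAD9, 0.65 for INHBC and -0.16 for TCF12. ID1 was at -0.15 with the trends removed. In the block fit ID1 (-0.45), BMP4 (-0.41) and BAMBI (-0.39) lost their calls. Leaving out a library moved ID1 between -0.61 and -0.29, ID2 between -0.19 and -0.070, ID3 between -0.83 and -0.39, SMAD6 between -0.19 and -0.073, SMAD7 between -0.55 and -0.22, SMAD9 between -0.16 and 0.042, BMP4 between -0.55 and -0.27, BAMBI between -0.42 and -0.36, MSX2 between -0.66 and -0.29, MSX1 between -0.57 and -0.25 and INHBC between -0.59 and 0.35. With the trends removed as well, the values that lost a call among the 10 genes or changed sign were -0.067 (without DMSO replicate 2) and -0.14 (without dTAG replicate 2) for ID1, 0.11 for ID2 (without DMSO replicate 1), -0.20 for ID3 (without dTAG replicate 2), 0.36 and 0.032 for INHBC (without DMSO or dTAG replicate 2) and -0.0049 for TCF12 (without DMSO replicate 2). The causes were not tested beyond the shifts given. With 2 libraries a condition, the spread between replicates limits the precision, and ID4, with 20 to 37 counts, is also limited by depth.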
